A study of Mus musculus with 6 samples.

Results

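The mouse proximal tubule solute carriers described here are a list of 36 membrane transporter genes, chosen by symbol, of which 35 reached a mean of at least 10 normalised counts over 6 RNA libraries and were tested. The deposited table holds 27179 features, of which 13946 reached that mean. By textbook segment, 11 of the 36 belong to the early tubule (S1 and S2, the convoluted part), 9 to the late tubule (S3, the straight part) and 16 were given no segment. The one member that did not reach the mean was Slc7a12. None of the others reached it through one genotype alone, since the lowest WT mean among the 35 was 32.0 normalised counts, for Slc22a13.

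RNA of whole glomeruli isolated by magnetic bead perfusion was sequenced from 6 male mice aged 9 weeks, of a mixed C57BL/6 strain background, with a directional library kit. The libraries KO-1 to KO-3 came from Parva-fl/fl*hNPHS2Cre mice, in which both floxed copies of Parva, the alpha-parvin gene, are exposed to Cre under the human podocin promoter, which acts in podocytes. The libraries WT-1 to WT-3 came from Parva-fl/fl mice, so both groups carry the floxed alleles and differ in Cre. The labels speak of mild proteinuria without limiting it to a genotype. Glomeruli also hold endothelial, mesangial and parietal cells that keep Parva, and no labels tie the mice to litters or preparation days, so p-values measure the spread between these 6 mice.

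The proximal tubule takes back most filtered glucose, amino acids, phosphate and bicarbonate, and it secretes organic anions and cations. Its cells change along their length: early cells carry transporters of high capacity, while late cells carry related ones of higher affinity that recover what is left. The tubule begins at the urinary pole of the glomerulus, and in mice the late segment also holds carriers whose level depends on sex.

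Parva was lower in every KO library, with 2288, 2338 and 1942 normalised counts in KO-1 to KO-3, against 6585, 7520 and 7890 in WT-1 to WT-3 (log2 fold change -1.74, SE 0.12, limma adjusted p = 0.0106). The recovered whole reads numbered 11886828 to 20015813 in the KO libraries and 14456490 to 20552984 in the WT libraries. Outside 10 genes that one library alone held at very high counts, they numbered 11858362 to 14310785 in KO and 11283413 to 13893716 in WT. Those 10 genes held 28.5%, 0.241% and 0.239% of the reads of KO-1 to KO-3, against 30.1%, 17.4% and 32.4% in WT-1 to WT-3. KO-2 and KO-3, one or the other of which was highest in each of the 35 tested carriers, thus stood apart from the other 4 libraries in this share, and its part in the results was not tested. Markers of podocytes, glomerular endothelium and mesangium with renin cells were all measured, 10, 10 and 8 genes, with none at 0 in any library. WT-1 stood apart from WT-2 and WT-3 in its tubule transcripts, as given for each list below.

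The results turn on a set of genes most of which moved in parallel. Of the 36, 28 have an upstream window in the RefSeq promoter table (GRCm38.p6, the mm10 assembly). This allows a look at what their sequences share. Both strands of the 250 bases before each annotated start were searched for CAAAGTCCA, a motif of HNF4, a transcription factor family of the proximal tubule. Some genes have more than 1 annotated start, so the 28 members have 36 windows. A window can reach into the span of its gene, as that of Slc34a1 does. The motif was present in 1 of the 28, Slc3a1, or 3.57%, against 0.451% of all 27025 genes with a window. The other members with a window therefore did not hold this string there, and a match is a description, not a binding site. Shown are Slc3a1, with the match in capitals, and the phosphate and glucose carriers Slc34a1 and Slc5a1, an early and a late member with no match, each 5′ to 3′ on the strand of the gene. The regions are chr17:85028097-85028346 for Slc3a1, chr13:55399398-55399647 for Slc34a1 and chr5:33103969-33104218 for Slc5a1, all on the plus strand.
Slc3a1: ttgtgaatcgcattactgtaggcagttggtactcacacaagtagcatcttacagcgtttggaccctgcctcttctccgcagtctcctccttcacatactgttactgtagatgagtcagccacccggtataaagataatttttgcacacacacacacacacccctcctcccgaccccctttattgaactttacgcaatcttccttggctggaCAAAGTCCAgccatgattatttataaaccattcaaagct
Slc34a1: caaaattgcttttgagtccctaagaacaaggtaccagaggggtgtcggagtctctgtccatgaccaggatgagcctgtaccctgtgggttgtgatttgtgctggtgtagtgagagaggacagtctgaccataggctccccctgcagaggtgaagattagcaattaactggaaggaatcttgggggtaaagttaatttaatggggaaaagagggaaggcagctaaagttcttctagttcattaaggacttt
Slc5a1: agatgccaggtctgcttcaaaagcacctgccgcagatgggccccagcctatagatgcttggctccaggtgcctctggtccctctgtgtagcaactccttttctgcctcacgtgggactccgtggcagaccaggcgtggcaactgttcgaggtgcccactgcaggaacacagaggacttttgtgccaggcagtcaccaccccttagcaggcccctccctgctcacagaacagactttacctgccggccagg

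The solute carriers were higher in the KO libraries almost throughout. Of the 35 tested members, 30 passed limma's adjusted p of 0.05 as higher in KO, against 13.5% of all genes tested, and none passed as lower. In 29 of the 35 every KO library lay above every WT library, which held for 23.2% of all genes tested, and in 6 the groups overlapped. All 35 had a positive log2 fold change, from 0.17 for Slc22a19 to 1.92 for Slc5a10, with a median of 1.49, or 2.82-fold, where the median of all genes tested was -0.0064. In bulk RNA, a change in the number of cells of a type and a change in RNA per cell cannot be told apart. The count of 30 was 0 without KO-2, without KO-3, without WT-2 or without WT-3, where 0.0143%, 0.0143%, 0.00717% and 0% of all genes passed as higher, with 30 to 34 members at an unadjusted p below 0.05 over all losses of 1 library. It was 33 without WT-1 and 27 without KO-1, where 18.6% and 9.19% of all genes passed as higher. Without WT-1 the members gained were Slc5a1, Slco1a1 and Slc22a30, and without KO-1 those lost were Slc5a8, Slc17a3 and Slc9a3. On the recovered whole reads, edgeR called 27 members and DESeq2 32, with 12.1% and 16.8% of all genes called as higher.

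Together the 36 members took 0.765%, 1.04% and 1.05% of the reads of KO-1 to KO-3 (outside the same 10 genes), against 0.620%, 0.289% and 0.309% of those of WT-1 to WT-3. WT-1 came nearest to KO-1, while WT-2 and WT-3 were far lower. Per kilobase of exon, the 8 most abundant members came in the same order in both genotypes: Slc34a1, Slc22a12, Slc22a6, Slc17a1, Slc7a13, Slc5a2, Slc3a1 and Slc47a1. Slc34a1 averaged 8266 ± 1690 normalised counts per kilobase in KO and 2970 ± 1360 in WT (SD, n = 3 each), above Slc22a12 in 6 of 6 libraries. For comparison on the same scale, the podocyte gene Nphs1 averaged 2388 in KO and 2947 in WT. The least firm step in the order was that of Slc17a1 over Slc7a13, seen in 4 of 6 libraries.

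**Figure D1:**
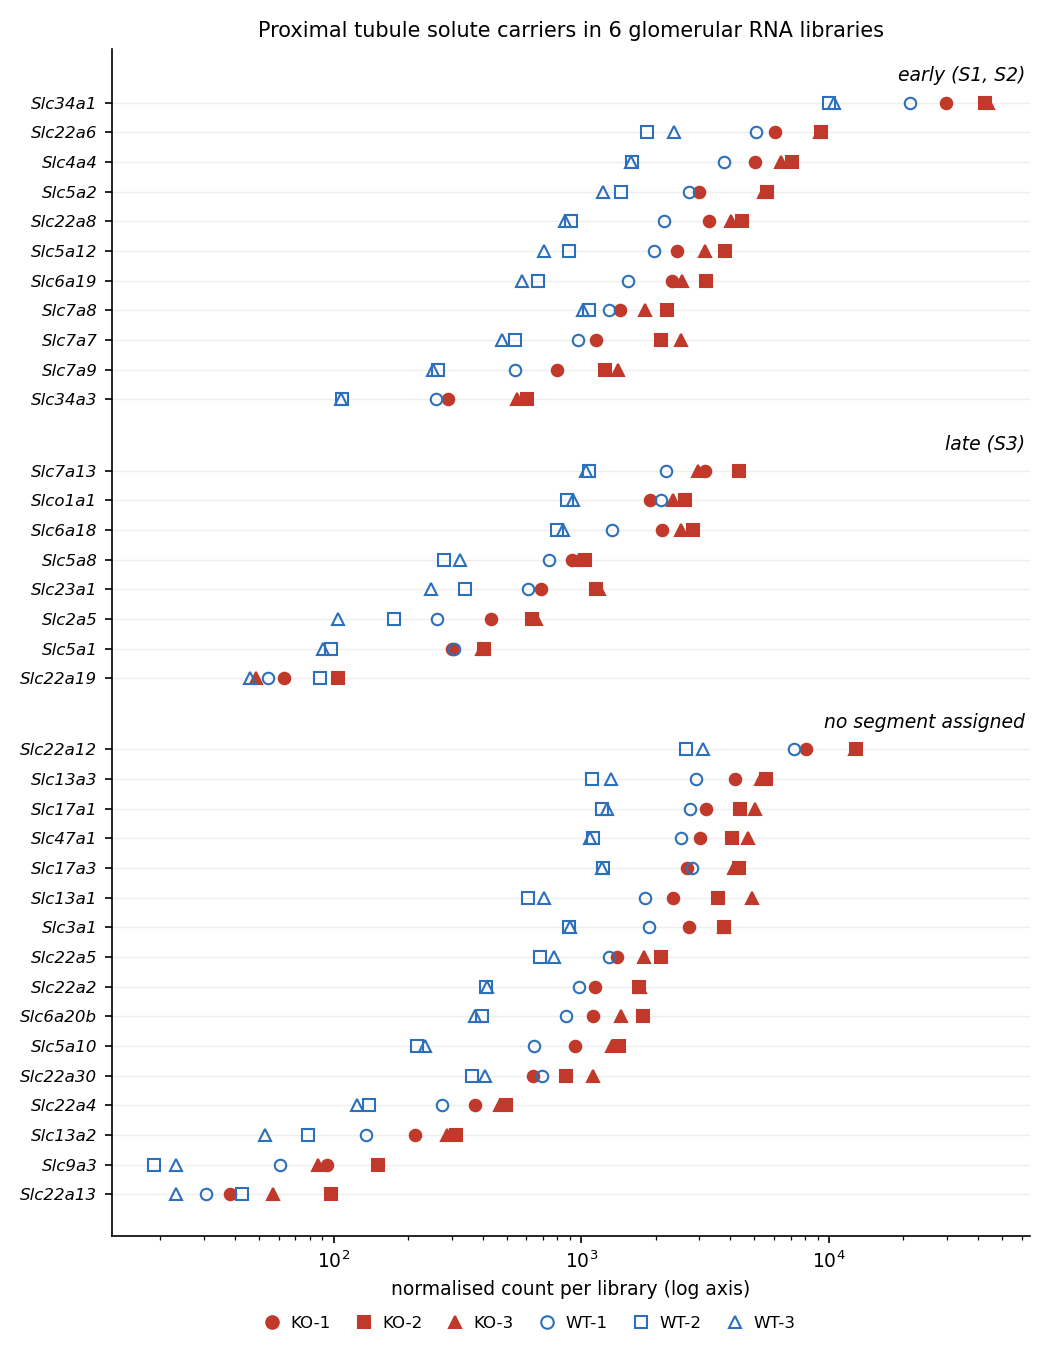
Normalised counts of the 35 tested members in each library (log axis), with KO libraries as filled red symbols, WT libraries as open blue symbols, and members grouped by segment. For most members WT-2 and WT-3 lie lowest, WT-1 and KO-1 lie close together and KO-2 and KO-3 lie highest, whereas Slc22a19 shows no separation.

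Among the early carriers, all 11 passed as higher in KO, against 13.5% of all genes tested, with a median log2 fold change of 1.53, or 2.89-fold. In all 11 every KO library lay above every WT library, which held for 23.2% of all genes tested. Slc34a1 (NCBI Gene 20505, chr13:55399622-55414695) encodes NaPi-IIa, the main apical sodium phosphate cotransporter, whose upstream window is shown above. It had 29561, 42510 and 43887 normalised counts in KO-1 to KO-3, against 21227, 9971 and 10470 in WT-1 to WT-3 (log2 fold change 1.55, SE 0.33, limma adjusted p = 0.0294). The nearest libraries were KO-1 and WT-1. Its relative Slc34a3 (NCBI Gene 142681, chr2:25228897-25234270), the cotransporter NaPi-IIc, was far less abundant, at 291, 603 and 551 in the KO libraries in order, against 259, 108 and 107 in the WT libraries (log2 fold change 1.67, SE 0.41, limma adjusted p = 0.0333).

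Slc5a2 (NCBI Gene 246787, chr7:128265683-128272430) encodes SGLT2, which takes up the bulk of filtered glucose. Its normalised counts were 2976, 5603 and 5470 in KO-1 to KO-3, against 2734, 1444 and 1224 in WT-1 to WT-3 (log2 fold change 1.41, SE 0.35, limma adjusted p = 0.0341). KO-1 exceeded WT-1 only narrowly. The organic anion transporter OAT1, from Slc22a6 (NCBI Gene 18399, chr19:8617996-8628299), brings drugs and metabolites into the cell from the blood side. It was counted at 6075, 9314 and 9238 in KO-1 to KO-3, against 5074, 1851 and 2375 in WT-1 to WT-3 (log2 fold change 1.52, SE 0.37, limma adjusted p = 0.0328). Slc22a8 (NCBI Gene 19879, chr19:8591254-8611835), the anion transporter OAT3, is its neighbour, with a gap of 6.2 kb between the genes. Counts of Slc22a8 were 3293, 4457 and 4012 in KO-1 to KO-3, against 2149, 908 and 861 in WT-1 to WT-3 (log2 fold change 1.71, SE 0.34, limma adjusted p = 0.0286). In both neighbours KO-2 was highest, KO-1 lowest of the KO libraries and WT-1 highest of the WT libraries.

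Slc7a9 (NCBI Gene 30962, chr7:35448727-35466034), the light chain of the cystine and basic amino acid exchanger, had the largest change of the early list. Its counts were 796, 1244 and 1403 in KO-1 to KO-3, against 538, 264 and 252 in WT-1 to WT-3 (log2 fold change 1.76, SE 0.33, limma adjusted p = 0.0286). The neutral amino acid carrier Slc6a19 (B0AT1) rose by 1.66 on the log2 scale, the basolateral exchanger chain Slc7a7 by 1.53, the low-affinity lactate carrier Slc5a12 by 1.52 and the basolateral sodium bicarbonate cotransporter Slc4a4 by 1.52 (limma adjusted p from 0.0291 to 0.0325). Slc7a8, the other basolateral exchanger chain, changed least, by 0.67 (SE 0.17, limma adjusted p = 0.0359). Chosen after its values were seen, it had 1428, 2213 and 1806 normalised counts in KO-1 to KO-3, against 1289, 1077 and 1020 in WT-1 to WT-3. The WT libraries of Slc7a8 lay closer together than those of the other early members, with WT-1 at 1.23 times the mean of WT-2 and WT-3.

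The late carriers were less uniform: 5 of the 8 tested passed as higher in KO, against 13.5% of all genes tested, and 3 did not pass. All 8 had a positive log2 fold change, with a median of 1.36, or 2.56-fold. Slc2a5 (NCBI Gene 56485, chr4:150119344-150144168), the fructose transporter GLUT5, led the list. It had 431, 630 and 654 normalised counts in KO-1 to KO-3, against 262, 175 and 104 in WT-1 to WT-3 (log2 fold change 1.73, SE 0.33, limma adjusted p = 0.0286). Slc23a1 (NCBI Gene 20522, on chromosome 18 from 35604224 to 35629845), an ascorbate transporter, followed with 688, 1149 and 1175 in the KO libraries in order, against 607, 339 and 248 in the WT libraries (log2 fold change 1.39, SE 0.34, limma adjusted p = 0.0339). In both genes the KO libraries lay above the WT libraries, by a small margin between KO-1 and WT-1 for Slc23a1. The assignment of these 2 genes to the late segment rests partly on work in rats.

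Slc5a1 (NCBI Gene 20537, chr5:33104219-33162699) encodes SGLT1, the glucose carrier of high affinity that follows SGLT2. Its counts were 300, 404 and 397 in KO-1 to KO-3, against 306, 98.0 and 90.5 in WT-1 to WT-3 (log2 fold change 1.37, SE 0.44, limma adjusted p = 0.0620). WT-1 lay above KO-1, so the groups overlapped, and WT-1 stood at 3.25 times the mean of WT-2 and WT-3, the widest such ratio of the 35 members. The level per kilobase averaged 89.4 ± 14.2 in KO and 40.2 ± 29.8 in WT for Slc5a1, far below that of Slc5a2, at 1617 ± 511 in KO and 622 ± 282 in WT (SD, n = 3 each).

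Slc7a13 (NCBI Gene 74087, chr4:19818727-19842213), the light chain of an acidic amino acid and cystine transporter of the straight tubule, was the most abundant late member per kilobase. It had 3167, 4352 and 2972 normalised counts in KO-1 to KO-3, against 2191, 1075 and 1044 in WT-1 to WT-3 (log2 fold change 1.35, SE 0.30, limma adjusted p = 0.0299). Here KO-3 was the lowest KO library, unlike in the early carriers, in all 11 of which KO-1 was lowest. Slc6a18, a neutral amino acid carrier, rose by 1.36 (SE 0.21, limma adjusted p = 0.0286), and the monocarboxylate carrier Slc5a8 by 1.27 (SE 0.33, limma adjusted p = 0.0385).

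The organic anion transporter gene Slco1a1 (NCBI Gene 28248, chr6:141907281-141946962) did not pass. It had 1895, 2631 and 2345 normalised counts in KO-1 to KO-3, against 2097, 877 and 930 in WT-1 to WT-3 (log2 fold change 0.92, SE 0.33, limma adjusted p = 0.0788). As with Slc5a1, WT-1 exceeded KO-1. Slc22a19 (NCBI Gene 207151, chr19:7673075-7711310), the anion transporter OAT5, chosen after its values were seen, was the member with the smallest change. Its counts were 62.9, 104 and 48.8 in KO-1 to KO-3, against 54.3, 88.1 and 46.1 in WT-1 to WT-3 (log2 fold change 0.17, SE 0.35, limma adjusted p = 0.740). KO-2 and WT-2 were highest in their groups and the groups overlapped. Its log2 fold change ran from -0.12 to 0.44 when 1 library was left out. The orphan amino acid carrier Slc7a12 (NCBI Gene 140918, chr3:14480697-14505819) was barely counted, with 0, 2 and 5 whole reads in KO-1 to KO-3, against 0, 1 and 0 in WT-1 to WT-3. With 0 reads, up to 3 reads are allowed, or 2.66 normalised counts in KO-1 against 3.26 in WT-1 and 2.47 in WT-3, so no difference was detectable at this depth. Slc7a12, Slc7a13, Slc22a19 and Slco1a1 are the late members whose renal level is known to depend on sex, and all mice were male.

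**Figure D2:**
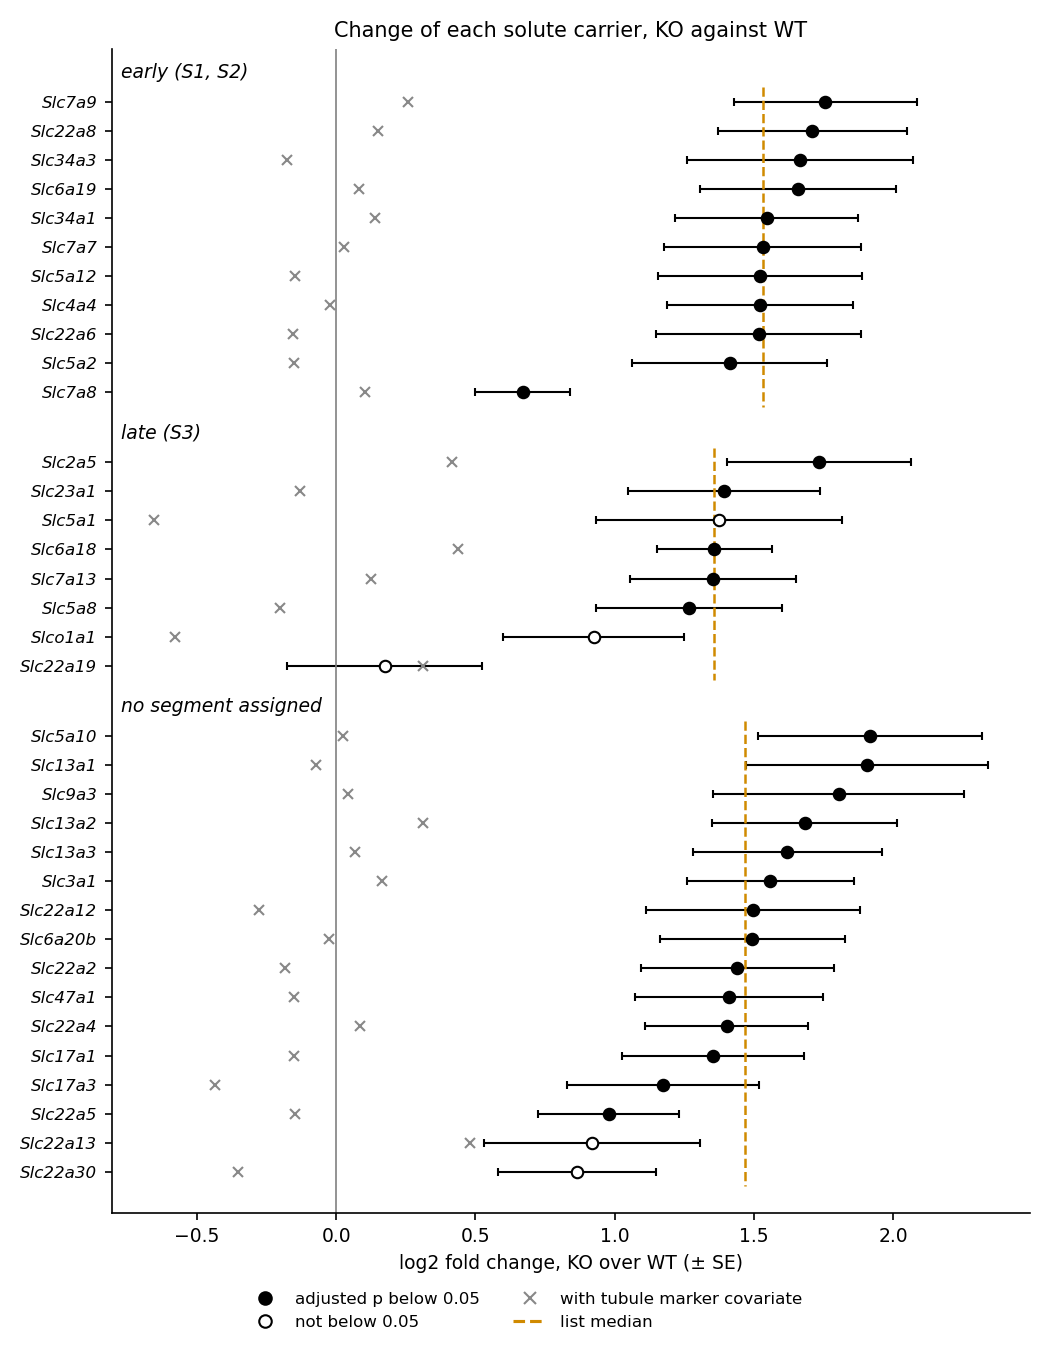
Log2 fold change of each tested member, KO over WT, with its SE (black points, filled where limma's adjusted p was below 0.05) and the value with the mean of the proximal tubule markers as covariate (grey crosses), grouped by segment with the median of each list as a dashed line. The early members cluster near 1.53 apart from Slc7a8 at 0.67, the late ones reach down to 0.17, and the crosses lie on both sides of 0.

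Of the 16 carriers with no segment assigned, 14 passed as higher in KO, against 13.5% of all genes tested, and 2 did not pass. The median log2 fold change of the 16 was 1.47, or 2.76-fold. In 13 every KO library lay above every WT library, which held for 23.2% of all genes tested. Slc5a10 (NCBI Gene 109342, chr11:61672782-61720817), a mannose and fructose carrier named SGLT5, had the largest change of all members. It had 941, 1419 and 1337 normalised counts in KO-1 to KO-3, against 643, 218 and 235 in WT-1 to WT-3 (log2 fold change 1.92, SE 0.40, limma adjusted p = 0.0288). The sulfate carrier gene Slc13a1 (NCBI Gene 55961, chr6:24088283-24168119) was counted at 2350, 3569 and 4902 in KO-1 to KO-3, against 1808, 612 and 705 in WT-1 to WT-3 (log2 fold change 1.91, SE 0.43, limma adjusted p = 0.0304). KO-3 was highest for Slc13a1, whereas KO-2 was highest for Slc5a10. The sodium proton exchanger NHE3, from Slc9a3 (NCBI Gene 105243, chr13:74086255-74169442), was low in count, at 93.9, 151 and 86.2 in KO-1 to KO-3, against 60.8, 18.8 and 23.0 in WT-1 to WT-3 (log2 fold change 1.80, SE 0.45, limma adjusted p = 0.0347).

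The other members of this list are given by substrate. For organic acids, the citrate carrier Slc13a2 rose by 1.68 and the dicarboxylate carrier Slc13a3 by 1.62 on the log2 scale (limma adjusted p = 0.0286 and 0.0287). For urate and related anions, the exchanger Slc22a12 (URAT1) rose by 1.49, Slc17a1 by 1.35 and Slc17a3 by 1.17 (limma adjusted p = 0.0365, 0.0325 and 0.0489). Slc17a3 passed although WT-1 lay above KO-1, with 2674 normalised counts in KO-1, against 2788 in WT-1. Its call was lost with no filter on low values (limma adjusted p = 0.0506) and with edgeR (adjusted p = 0.0671). For organic cations and carnitine, Slc22a2 (OCT2) rose by 1.44, the exporter Slc47a1 (MATE1) by 1.41, the ergothioneine carrier Slc22a4 by 1.40 and the carnitine carrier Slc22a5 by 0.98 (limma adjusted p from 0.0287 to 0.0371). Slc3a1, the heavy chain that pairs with Slc7a9 and with Slc7a13, rose by 1.56 (limma adjusted p = 0.0286), between its light chains at 1.76 and 1.35. Slc6a20b, a relative of the imino acid carriers, rose by 1.49 (limma adjusted p = 0.0299).

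The 2 members of this list that did not pass belong to the organic anion transporter family. Slc22a30 had 641, 867 and 1118 normalised counts in KO-1 to KO-3, against 694, 362 and 408 in WT-1 to WT-3 (log2 fold change 0.86, SE 0.28, limma adjusted p = 0.0659). For Slc22a13, a urate and nicotinate carrier, the counts were 38.1, 97.4 and 56.7 in the KO libraries in order, against 30.4, 42.6 and 23.0 in the WT libraries (log2 fold change 0.92, SE 0.39, limma adjusted p = 0.123). Both were chosen after their values were seen, and in both the groups overlapped. Slc22a30 and Slc22a19 lie on chromosome 19 in a cluster of related Slc22a genes, whose reads can be shared between similar copies, so their values are uncertain in that respect.

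Several members are neighbours in the genome. Slc6a18 (chr13:73661750-73678023) and Slc6a19 (chr13:73679745-73700780) are separated by 1.7 kb and belong to the late and the early list. Slc6a18 changed by 1.36 and Slc6a19 by 1.66 on the log2 scale. Slc17a3 and Slc17a1, with a gap of 6.9 kb, changed by 1.17 and 1.35, and the anion transporter neighbours Slc22a8 and Slc22a6 changed by 1.71 and 1.52. Taken within libraries, the log2 ratio of Slc6a19 to Slc6a18 differed by 0.30 (SE 0.23) between KO and WT. That of Slc22a6 to Slc22a8 differed by -0.19 (SE 0.16). Both are given below with the other carrier pairs, and the ratio of Slc17a3 to Slc17a1 was not taken.

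The question of the segments is whether early and late carriers moved by the same amount. In each library, the mean over a list of each gene's log2 level relative to its own mean over the 6 libraries was taken. Early carriers stood at 0.34, 0.997 and 0.92 in KO-1 to KO-3, against -0.02, -1.08 and -1.15 in WT-1 to WT-3. Late carriers stood at 0.35, 0.85 and 0.60 in KO-1 to KO-3, against 0.05, -0.80 and -1.04 in WT-1 to WT-3. Both lists therefore placed the libraries in nearly the same way, with the late list closer to 0 in KO-2, KO-3, WT-2 and WT-3.

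Early minus late was -0.01, 0.15 and 0.32 in KO-1 to KO-3, against -0.06, -0.28 and -0.11 in WT-1 to WT-3. The KO mean was 0.15 ± 0.17 and the WT mean -0.15 ± 0.11 (SD, n = 3 each), a difference of 0.30 on the log2 scale with no overlap between the groups. No test was made of this score, since its members were chosen with results known. The difference depended on a few late members. Without Slc22a19, a choice made after seeing the data, it was 0.16 and the groups overlapped. Without Slc7a13, Slc22a19 and Slco1a1, the tested late members whose level depends on sex, it was 0.08 and the groups overlapped as well. With Slc13a3, Slc22a2 and Slc22a12 added to the early list and Slc22a13, Slc22a30 and Slc3a1 to the late list, it was 0.33, without overlap. Slc22a30 and Slc22a13 were the carriers with no segment that changed least, by 0.86 and 0.92 on the log2 scale. The longer late list also kept Slc22a19 and the other sex-dependent members, so it gives no separate support for the difference. Only late members were left out in this way. Slc7a8, the early member that changed least, by 0.67 on the log2 scale, was kept throughout. Within the members' reads, early carriers took 57.0%, 57.5% and 57.4% in KO-1 to KO-3, against 54.7%, 56.5% and 55.7% in WT-1 to WT-3, and late carriers took 9.87%, 9.20% and 7.88% in KO, against 9.99%, 10.9% and 10.3% in WT. The early share rested largely on Slc34a1. That gene had 29561 of the 55343 normalised counts of the early list in KO-1, and 21227 of 41526 in WT-1.

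**Figure D3:**
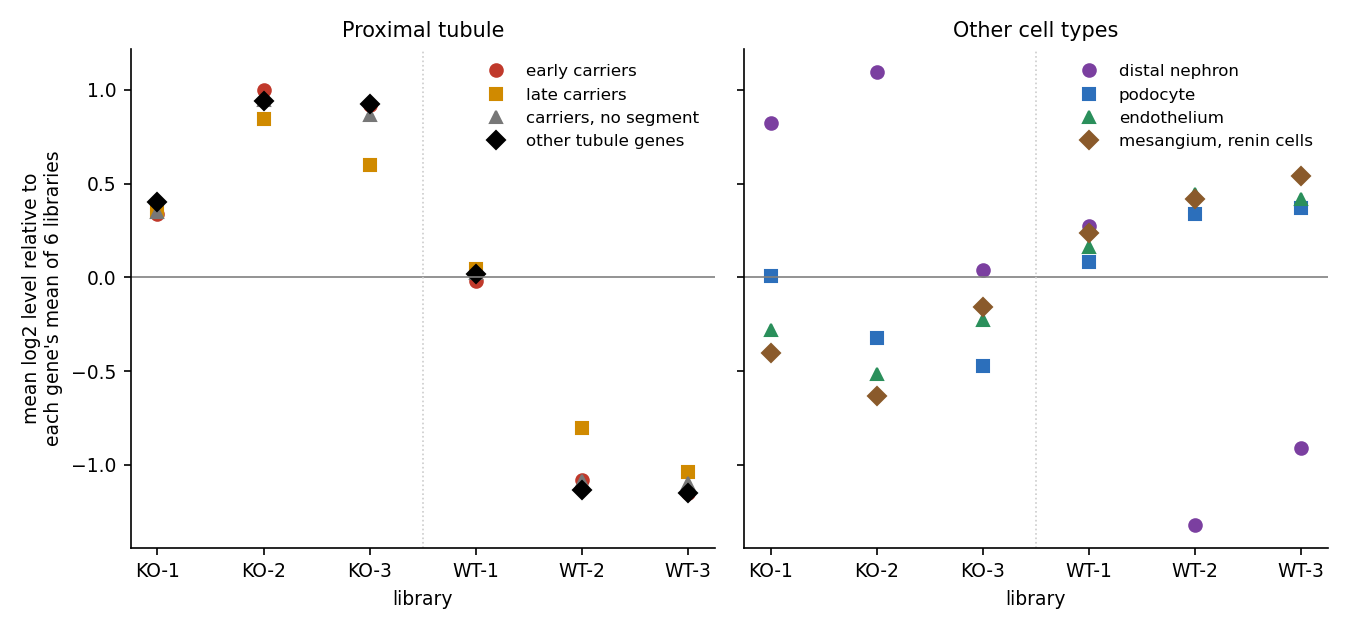
Mean log2 level of each gene list relative to each gene's mean over the 6 libraries, by library, for proximal tubule lists (left) and lists of other cell types (right), with KO libraries left of WT libraries. Early carriers, carriers with no segment and other proximal tubule genes nearly coincide, and late carriers lie closer to 0 in KO-2, KO-3, WT-2 and WT-3. Distal nephron genes are high in KO-1 and KO-2 and near 0 in KO-3.

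Carriers that handle the same substrate in the early and the late segment, or in the same cells, can be set against each other within a library, where depth cancels. Ratios were taken for 6 pairs, chosen after the members' values were seen, with exact permutation tests that cannot go below p = 0.1 for 3 against 3 libraries. The ratio of Slc5a2 to Slc5a1, SGLT2 to SGLT1, was 9.91, 13.9 and 13.8 in KO-1 to KO-3, against 8.93, 14.7 and 13.5 in WT-1 to WT-3. The difference of the log2 ratio was 0.03 (SE 0.27; two-sided exact permutation p = 0.8, adjusted over the 6 pairs 0.8), and both groups held one low library, KO-1 and WT-1.

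The ratio of the lactate carriers, Slc5a12 to Slc5a8, was 2.67, 3.65 and 3.23 in KO-1 to KO-3, against 2.66, 3.19 and 2.18 in WT-1 to WT-3, a log2 difference of 0.25 (SE 0.21). For the neutral amino acid carriers, Slc6a19 to Slc6a18, it was 1.10, 1.13 and 1.003 in KO-1 to KO-3, against 1.165, 0.839 and 0.678 in WT-1 to WT-3, a log2 difference of 0.30 (SE 0.23). In both pairs the groups overlapped. The light chains of Slc3a1, Slc7a9 to Slc7a13, had a ratio of 0.251, 0.286 and 0.472 in KO-1 to KO-3, against 0.245, 0.246 and 0.241 in WT-1 to WT-3, a log2 difference of 0.41 (SE 0.28). This was the pair without overlap (two-sided exact permutation p = 0.1, adjusted over the 6 pairs 0.6): the WT libraries agreed closely, KO-1 lay just above them and KO-3 far above.

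Within a segment, the phosphate carriers Slc34a1 to Slc34a3 had a ratio of 101, 70.5 and 79.6 in KO-1 to KO-3, against 82.1, 92.4 and 97.9 in WT-1 to WT-3, a log2 difference of -0.13 (SE 0.17). The ratio of Slc22a6 to Slc22a8 was 1.84, 2.09 and 2.30 in the KO libraries in order, against 2.36, 2.04 and 2.76 in the WT libraries, a log2 difference of -0.19 (SE 0.16). Neither pair separated the groups. The adjusted exact permutation p was 0.6 or above for all 6 pairs, and with a smallest possible p of 0.1 no pair could have passed 0.05 whatever its shift.

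**Figure D4:**
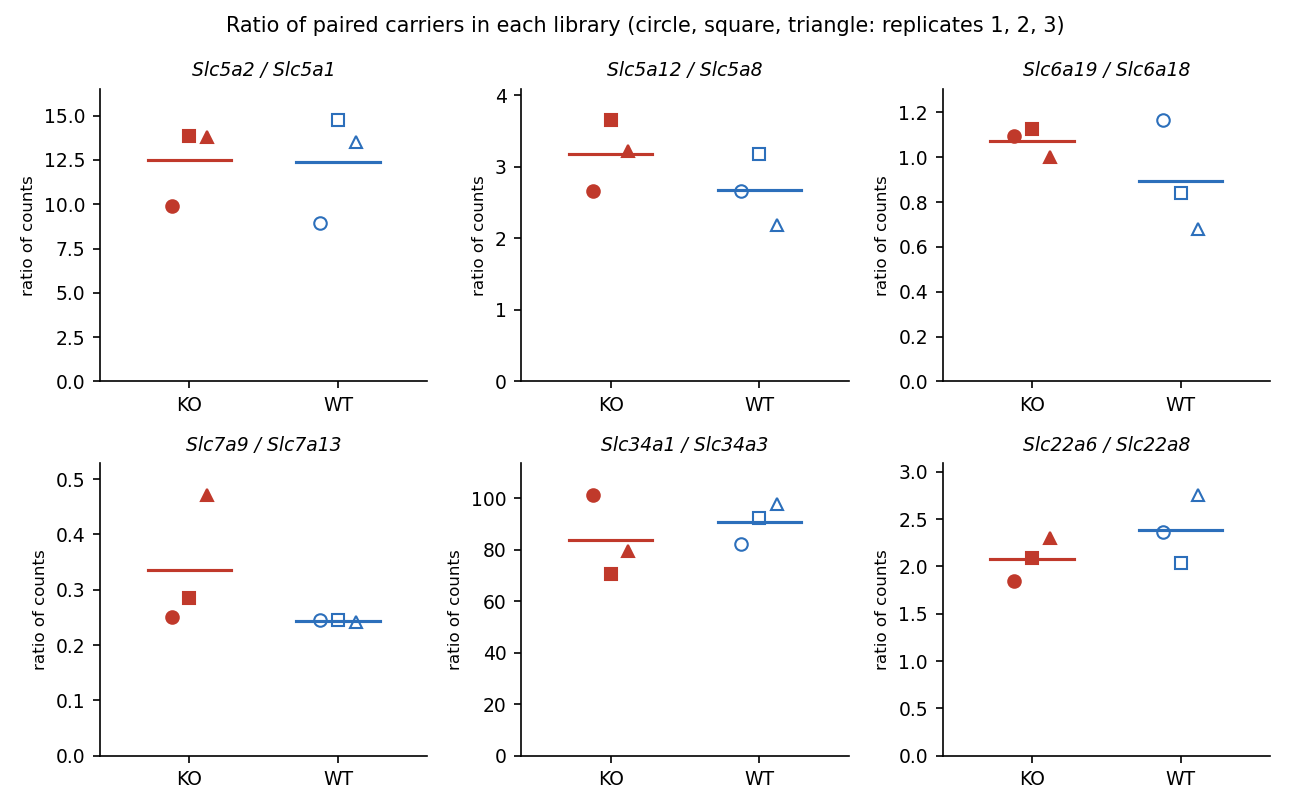
Ratio of normalised counts of 2 carriers in each library for 6 pairs, KO left (filled red) and WT right (open blue), with the mean of each group as a bar. The ratios of Slc5a2 to Slc5a1 span about the same range in both groups, from 9.91 to 13.9 in KO and from 8.93 to 14.7 in WT, and Slc7a9 to Slc7a13 is the pair in which every KO library lies above every WT library.

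Most of the 35 tested carriers moved with other genes of the same cells. Of 16 proximal tubule genes that are not solute carriers, 15 rose in KO, where 13.5% of all genes tested did, with a median log2 fold change of 1.54. In all 16 every KO library lay above every WT library, which held for 23.2% of all genes tested. Their summed level was 150913 to 214761 normalised counts in the KO libraries and 49077 to 113672 in the WT libraries, with WT-1 the highest WT library. Miox, an inositol-degrading oxygenase, rose by 1.73, Ass1, an enzyme of arginine synthesis, by 1.65, Gatm, an enzyme of creatine synthesis, by 1.37, and Cubn, the receptor cubilin, by 1.56 (limma adjusted p = 0.0286 for each). The early carriers minus these genes differed by -0.01 between KO and WT, with overlap, and the late carriers minus these genes by -0.31, without overlap. The late difference rested on few members: it was -0.17 without Slc22a19, still without overlap, and -0.08 without the sex-dependent late members, with overlap. The late list without Slc22a19 was chosen after the values were seen, and both lists were drawn up with earlier results of these data known.

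Part of the same pattern lay within the genotypes. WT-1 was the highest WT library in 33 of the 35 members, against 37.1% of all genes tested, at a median of 2.24 times the mean of WT-2 and WT-3. KO-1 was the lowest KO library in 32, against 35.3% of all genes tested, at a median of 0.691 times the mean of KO-2 and KO-3. In 4 members, Slc5a1, Slco1a1, Slc17a3 and Slc22a30, WT-1 lay above KO-1. The highest of the 6 libraries was KO-2 for 25 members and KO-3 for 10. The other 16 proximal tubule genes behaved alike, with WT-1 at a median of 2.23 times the mean of WT-2 and WT-3 and KO-1 at 0.696 times the mean of KO-2 and KO-3. When the mean log2 level of these 16 genes was added to the model as a covariate, no gene passed, with 4 of the 35 members at an unadjusted p below 0.05. The median log2 fold change of the members was then -0.02, with 17 of 35 above 0 and values from -0.66 for Slc5a1 to 0.48 for Slc22a13. The medians were 0.03 for early, -0.0027 for late and -0.05 for unassigned carriers.

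Of 16 partners and regulators of the carriers, 13 passed as higher in KO, against 13.5% of all genes tested, and none as lower, with a median log2 fold change of 1.55. Hnf4a and Ggt1 stand in this list and also among the 16 proximal tubule genes above, so the lists are not separate. Maf, a transcription factor, rose by 0.77, Slc9a3r1, the scaffold NHERF1 that binds apical carriers, by 0.75, and Pdzk1ip1, a small membrane protein that associates with SGLT2, by 1.55 (limma adjusted p = 0.0286 for each). Among the 3 that did not pass were Car4, a membrane carbonic anhydrase, at 1.19, and Slc3a2, the heavy chain of the basolateral exchangers, at 0.31 (limma adjusted p = 0.0598 and 0.119). Hnf4a, which encodes a factor of the family whose motif was searched for above, changed by 1.59 (limma adjusted p = 0.0344), and it was chosen after its value was seen.

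Of 35 further transporters of the proximal tubule outside the list, 31 reached the mean of 10. Among them 20 rose, against 13.5% of all genes tested, none fell and 11 did not pass, with a median log2 fold change of 1.27. Abcc2, the apical anion export pump MRP2, had 1014, 1111 and 1146 normalised counts in KO-1 to KO-3, against 332, 214 and 317 in WT-1 to WT-3 (log2 fold change 1.94, SE 0.17, limma adjusted p = 0.0198). The KO libraries lay close together in Abcc2, WT-2 was the lowest WT library, and the groups did not overlap. With the proximal tubule covariate its log2 fold change was 1.49, which did not pass. The 35 members then lay between -0.66 and 0.48, so Abcc2 was not typical of them. It lies at chr19:43782308-43838332. Slc5a9, a mannose carrier, rose by 1.42, Slc40a1, the iron exporter ferroportin, by 1.73, and Slc6a13, a GABA and taurine carrier, by 1.84 (limma adjusted p = 0.0286 for each).

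Markers of glomerular cells moved the other way. Of 10 podocyte markers 4 fell and none rose, with a median of -0.63, of 10 glomerular endothelial markers 9 fell, with a median of -0.68, and of 8 mesangial and renin cell markers 6 fell, with a median of -0.82. Lower calls made up 8.58% of all genes tested. Their summed levels were 149549 to 220661 normalised counts in KO and 223731 to 277404 in WT for podocytes, 47994 to 57496 in KO and 79530 to 99506 in WT for endothelium, and 17631 to 21508 in KO and 27957 to 35435 in WT for mesangium with renin cells. Among them, Wt1, a podocyte transcription factor, fell by 0.92, the VEGF receptor Flt1 by 0.70 and Tbx3, a transcription factor of mesangial cells, by 0.85 on the log2 scale (limma adjusted p = 0.0286 for each). In all 3 lists WT-1 had the lowest summed level of the WT libraries. The part of the mix of tubule and glomerular RNA in the higher level of the carriers was not tested. The covariate cannot decide it, because its 16 genes themselves separated KO from WT.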

How the data were processed

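Glomerular RNA was sequenced in 3 KO and 3 WT libraries, grouped by the sample titles. The authors deposited a single table of normalised counts, a signal per feature and library that is reads per gene over a size factor, as the values show and per the file headers. The submitters' processing notes name mm10, DESeq2 2.11.40.6, featureCounts 1.6.4, HISAT2 2.1, cutadapt 1.16.5 and bcl2fastq 2.19. How strand and multiply mapped reads were handled, and which annotation was used, is not given in the sources used here, so reads of overlapping, antisense or similar genes cannot be told apart. The values were whole multiples of what 1 read is worth: 100% were whole at a tolerance of 0.01. Reads carry no molecular identifiers, and floors (3 reads) cover counting error only.

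Symbols and coordinates came from RefSeq GRCm38.p6 or GENCODE M21. Of 27179 identifiers, 25293 were named, and all 149 genes of the lists were found. Levels per kilobase used the union of exons of GENCODE M21. Values were tested with limma 3.58.1 (R 4.3.3) with a variance trend on log2(normalised count + 1). Genes with a mean of at least 10 entered, 13946 in all, and two-sided p-values were adjusted over all of them by the Benjamini-Hochberg method, with 0.05 as the threshold. Fold changes on this scale understate those of low genes. The pair ratios were tested by exact permutation with scipy 1.17.1.

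The members, the segment lists and the other lists were chosen with earlier results of these data known. Segments were assigned from textbook knowledge. Values in all libraries are given for Slc34a1, Slc5a2, Slc5a1, Slc22a6, Slc7a13, Slco1a1, the 3 largest changes of each segment list and the member below the mean of 10, and from other lists up to 4 genes with the smallest p. A few genes of these lists are not reported here by name. Other genes given with their values were chosen after those were seen, as were the carrier pairs and the late list without Slc22a19.

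Alternatives were a replicate block, other pseudocounts (0.5 and 5), filters and scalings (TMM, upper quartile), limma with a robust prior or with no variance trend, the proximal tubule marker covariate, other segment lists, leaving out each library, and count tests on the recovered reads with DESeq2 1.42.0 (3810 genes called) and edgeR 4.0.16 (2841). The limma step was tested on simulated KO and WT counts of 13936 genes. It found 75% of the 100 genes given a 2-fold change and 96% of the 100 given a 4-fold change, and made 11 false calls. Whether these rates hold for the real libraries, in which many tubule genes moved together from library to library, was not tested.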

Additional observations from a re-analysis of the deposited data

How the results depend on the processing

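All 35 members kept a positive log2 fold change under both other pseudocounts, TMM and upper quartile scaling, the robust prior, edgeR and DESeq2. Leaving out 1 library gave 0 to 4294 genes, 0 to 33 members, 0 to 11 early, 0 to 7 late and 0 to 15 unassigned carriers past the threshold: 4294 genes without WT-1 and 2062 without KO-1, but 4, 3, 1 and 0 without KO-2, KO-3, WT-2 and WT-3. Medians ran from 1.38 to 1.94 for early and from 1.10 to 1.70 for late carriers, their difference from 0.19 to 0.29, and early minus late per library from 0.22 to 0.39. Slc22a19 ran from -0.124 to 0.4425, with the sign reversed without KO-2 and without WT-3. Parva ran from -1.82 to -1.66 (adjusted p = 0.0793 without WT-2 and 0.0533 without WT-3).

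The replicate numbers did not pair the libraries (correlations of same-numbered deviations -0.23, -0.19 and -0.01). With them as a block, 0 genes passed, so 0 members, 0 early, 0 late and 0 unassigned carriers, with 4284 genes and 34 members at an unadjusted p below 0.05, and Parva had an adjusted p of 0.0868 at -1.74. Without the variance trend limma called 1 gene and 0 members (5305 genes and 33 members at an unadjusted p below 0.05), with 0.0537 for Parva. The causes of these changes were not tested.

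With the proximal tubule covariate, 0 genes passed (384 at an unadjusted p below 0.05) and Parva was at -1.45 (adjusted p = 0.674). The early median was 0.027, the late median -0.0027, their difference 0.0296 and early minus late per library 0.043. The carriers then below 0 were Slc13a1 (-0.0721), Slc17a1 (-0.15), Slc17a3 (-0.43), Slc22a12 (-0.28), Slc22a2 (-0.18), Slc22a30 (-0.35), Slc22a5 (-0.15), Slc22a6 (-0.16), Slc23a1 (-0.13), Slc34a3 (-0.18), Slc47a1 (-0.15), Slc4a4 (-0.024), Slc5a1 (-0.66), Slc5a12 (-0.15), Slc5a2 (-0.15), Slc5a8 (-0.20), Slc6a20b (-0.0245) and Slco1a1 (-0.58). The covariate holds the genes that moved with genotype, so by construction it removes change shared with them. Early minus late per library was 0.16 without Slc22a19 and 0.0757 without the sex-dependent late members. Upper quartile scaling moved the median of all genes to -0.06, with 1717 higher and 1531 lower calls.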

Other observations

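Genes of the distal nephron differed from the solute carriers in the order of the KO libraries, but were like them in WT-1. Of 20 distal tubule and collecting duct genes, 4 rose in KO, none fell and 16 did not pass, with a median log2 fold change of 1.32 close to that of the late carriers. The share of 20% that rose was near the 13.5% of all genes tested that passed as higher. The 4 were the water channel Aqp3 (1.30), the anion exchanger Slc4a9 (1.51), the FXYD family gene Fxyd4 (1.31), and Scnn1b, a chain of the epithelial sodium channel (1.58), with limma adjusted p from 0.0415 to 0.0483. Their mean relative log2 level was 0.82, 1.10 and 0.04 in KO-1 to KO-3, against 0.28, -1.32 and -0.91 in WT-1 to WT-3. KO-1 was the lowest KO library in 2 of the 20 genes, whereas it was so in 32 of the 35 tested carriers. WT-1 was the highest WT library in 19 of the 20, against 37.1% of all genes tested. Its median there was 2.69 times the mean of WT-2 and WT-3. All 20 distal genes had a positive log2 fold change. Summed over the list, distal genes had 52642, 76861 and 36277 normalised counts in KO-1 to KO-3, against 38602, 11486 and 20454 in WT-1 to WT-3, so that KO-3 lay below WT-1.

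The thiazide-sensitive sodium chloride cotransporter Slc12a3 of the distal convoluted tubule, chosen after its values were seen, had 9515, 14640 and 4991 normalised counts in KO-1 to KO-3, against 4522, 1858 and 4373 in WT-1 to WT-3. The proximal phosphate carrier Slc34a1 was highest in KO-3, where Slc12a3 was lowest of the KO libraries. Neither contrast between proximal and distal genes was tested.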
